A study of Homo sapiens with 9 samples.

Results

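The genes described here are the ligands, receptors, feedback inhibitors and a response gene of the TGF-β pathway: TGFB1, TGFB2, TGFB3, INHBA, TGFBR1, TGFBR2, TGFBR3, SMAD7, SKIL and TGFBI. They were followed in Rh30, a human fusion-positive rhabdomyosarcoma (FP-RMS) cell line that expresses PAX3-FOXO1, the fused transcription factor of this tumor. Every probe set whose single gene symbol in the array annotation is one of the 10 names was taken, which gave 26 of the 54613 probe sets of the array and 10 of the 19775 genes with a symbol of their own. No probe set with several symbols names any of them. RNA was measured on Affymetrix U133 Plus 2.0 arrays with 3 biological replicates in each of 3 groups (9 arrays). Xenografts were grown in immunodeficient SCID/beige mice. The methods of the study place them in the gastrocnemius muscle and start them from adherent cells in PBS, whereas the sample labels describe flank implants in Matrigel from adherent or sphere cultures, so the route and the starting culture of the arrayed tumors are not settled. Spheres were collected after 48 h in ultra-low attachment vessels, in Neurobasal medium to which insulin at 50 µg/ml, the growth factors EGF (40 ng/ml) and bFGF (80 ng/ml) and the supplement B27 (1X) were added. Adherent cells were grown as monolayers in RPMI medium with fetal bovine serum. All 3 groups carry the fusion and come from this 1 cell line, and the spheres and the adherent cells differ in medium and supplements as well as in shape.

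TGF-β ligands are secreted in a latent form and, once released, bring together a type II and a type I receptor kinase. The type I receptor then phosphorylates SMAD2 and SMAD3, which enter the nucleus with SMAD4 and change transcription, and among the genes they turn on are inhibitors such as SMAD7 and SKIL that dampen the signal. In the skeletal muscle lineage, to which rhabdomyosarcoma is related, TGF-β is best known for holding back differentiation.

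To show the letters that Smad complexes can bind near genes of this loop, the bases just before the start of both feedback genes and of TGFBI are printed from RefSeq (GRCh38.p14), 5′ to 3′ on the strand of the gene. The values of SMAD7 and SKIL are set beside each other later, and TGFBI is the response gene among the 10. The windows were searched on both strands for CAGAC (the Smad box), GTCTAGAC (a Smad palindrome), TGANTCA (an AP-1 site) and TGACGTCA (a cAMP response element), and matches are in capitals. The SMAD7 window, chr18:48950966-48951215 on the minus strand, holds 2 Smad boxes that begin 217 and 128 bases before the start. It is the most upstream of 3 listed starts. The SKIL window, chr3:170357465-170357714 on the plus strand, holds 1 Smad box, read as GTCTG on the printed strand, that begins 107 bases before the start, and 1 cAMP response element at 54 bases. The TGFBI window, chr5:136028738-136028987 on the plus strand, holds none of these letters.
SMAD7: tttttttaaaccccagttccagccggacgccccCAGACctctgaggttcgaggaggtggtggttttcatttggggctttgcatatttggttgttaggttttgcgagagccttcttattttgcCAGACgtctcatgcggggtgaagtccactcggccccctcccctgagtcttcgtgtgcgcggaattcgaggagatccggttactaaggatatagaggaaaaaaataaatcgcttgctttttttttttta
SKIL: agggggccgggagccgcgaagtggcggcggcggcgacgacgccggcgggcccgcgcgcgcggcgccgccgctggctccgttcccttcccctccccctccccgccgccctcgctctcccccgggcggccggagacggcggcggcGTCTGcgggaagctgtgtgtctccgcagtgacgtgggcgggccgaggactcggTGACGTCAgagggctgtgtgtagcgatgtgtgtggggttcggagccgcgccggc
TGFBI: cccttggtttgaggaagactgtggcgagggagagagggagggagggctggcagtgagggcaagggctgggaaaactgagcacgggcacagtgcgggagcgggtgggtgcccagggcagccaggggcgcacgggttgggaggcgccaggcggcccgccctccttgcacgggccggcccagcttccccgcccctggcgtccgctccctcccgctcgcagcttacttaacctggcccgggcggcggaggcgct
All 10 genes have a window in the table, and 4 of them (SMAD7, SKIL, TGFB2 and TGFB3) have a Smad box in their most upstream one. TGFBR1 has none there, but holds Smad boxes in windows 2, 3, 5 and 6 of its 8. Over all genes, counting every listed start and not only the most upstream, there were 35116 windows of 250 bases. Of these, 38.0% hold a Smad box, 0.182% the palindrome, 6.57% the AP-1 site and 1.65% the cAMP response element. A match is a match of letters only.

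The values are log2 RMA values as the authors deposited them, in which a difference of 1 is a 2-fold difference in signal. Differences were tested with limma across all 54613 probe sets, with p-values adjusted by the Benjamini-Hochberg method, and a probe set was called where the adjusted p was under 0.05. A gene is described by its brightest probe set, the one with the highest mean over the 9 arrays, and its other probe sets are given where they are called. Levels of different probe sets cannot be compared, since each binds its target with its own strength. Array medians were 4.78 to 4.87, and 9 of the 26 probe sets had no group mean above 4.84, the median of all probe sets, the 3 of INHBA among them. In bulk RNA, fewer cells of a type and less RNA per cell cannot be told apart. The p-values weigh each difference against a spread estimated over all 9 arrays together.

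Arrays of 1 group correlated at 0.990 to 0.998 over all probe sets. Of 11 rhabdomyosarcoma markers, MYOD1, MYOG, FGFR4 and MYCN were among those bright in all groups, and 1, MYF6, lay below the median of all probe sets in each. Against adherent cells, 5 were lower and 0 higher in spheres (45.5% and 0%, against 16.3% and 13.5% of all genes). In xenografts 2 were higher and 2 lower (18.2% each, against 12.6% and 14.3%). The mean of the 11 was 9.01 to 9.06 in xenografts, 8.45 to 8.46 in spheres and at least 8.96 in adherent cells. The mean of 10 fibroblast markers was 6.27 to 6.58 in xenografts, 5.59 to 5.75 in spheres and 5.73 to 5.86 in adherent cells. By single genes, 1 of 8 endothelial and 1 of 9 macrophage and leukocyte markers were higher in xenografts than in adherent cells. These shares were 12.5% and 11.1%, against 12.6% of all genes. Of 5 platelet and blood markers, 2 were higher and 0 lower in xenografts than in adherent cells (40% and 0%, against 12.6% and 14.3%). The mean of these 5 was 4.74 to 4.86 in xenografts, 4.66 to 4.79 in spheres and 4.57 to 4.60 in adherent cells. Of 10 adult muscle markers, 4 were higher in xenografts, among them MYH4, a fast myosin heavy chain (2.40, 5.28-fold, adjusted p = 1.58e-06), and 2 were lower, MYL1 (-1.11) and MB (-0.99). That is 40% higher and 20% lower, against 12.6% and 14.3% of all genes. Mean levels of endothelial, macrophage and adult muscle markers in xenografts were 4.05 to 4.32, 4.23 to 4.40 and 4.70 to 4.91, against at most 4.07, 4.04 to 4.13 and 4.52 to 4.58 in adherent cells. The probes are human, so mouse RNA would be read only where it binds them, and the part of host cells in the xenograft results was not tested. The 3′ minus 5′ difference of the ACTB control probe sets, a sign of RNA degradation, was 2.48 ± 0.23 in xenografts, 3.20 ± 0.09 in spheres and 2.39 ± 0.30 in adherent cells (SD, n = 3 each). Spheres stood above adherent cells and xenografts without overlap (exact permutation p = 0.1 for both, two-sided, the smallest that 3 against 3 arrays can give). The same difference for GAPDH was 0.53 ± 0.11 in xenografts, 0.62 ± 0.05 in spheres and 0.54 ± 0.13 in adherent cells (p of 0.4 to 0.9 by the exact permutation test over the 3 comparisons), so the 2 control genes did not part the groups alike. The poly-A control probe sets averaged 7.84 ± 0.41 in xenografts, 6.98 ± 0.15 in spheres and 7.16 ± 0.14 in adherent cells. Xenografts were above both cultures (p = 0.1 for each by the exact permutation test, and 0.3 between spheres and adherent cells). The part of RNA quality and labelling in the results was not tested.

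Among ligands, TGFB2 was lower in both xenografts and spheres than in adherent cells, with the sphere call of its brightest probe set at the threshold. TGFB3 was higher in spheres than in adherent cells. Among receptors, TGFBR2 was lower in xenografts than in both other groups, and TGFBR1 was higher in spheres by its dimmer probe sets but not by its brightest. SMAD7 was higher in spheres, and TGFBI was lower in spheres than in either other group. INHBA was higher in xenografts than in both cultures, at a low signal.

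**Figure D1:**
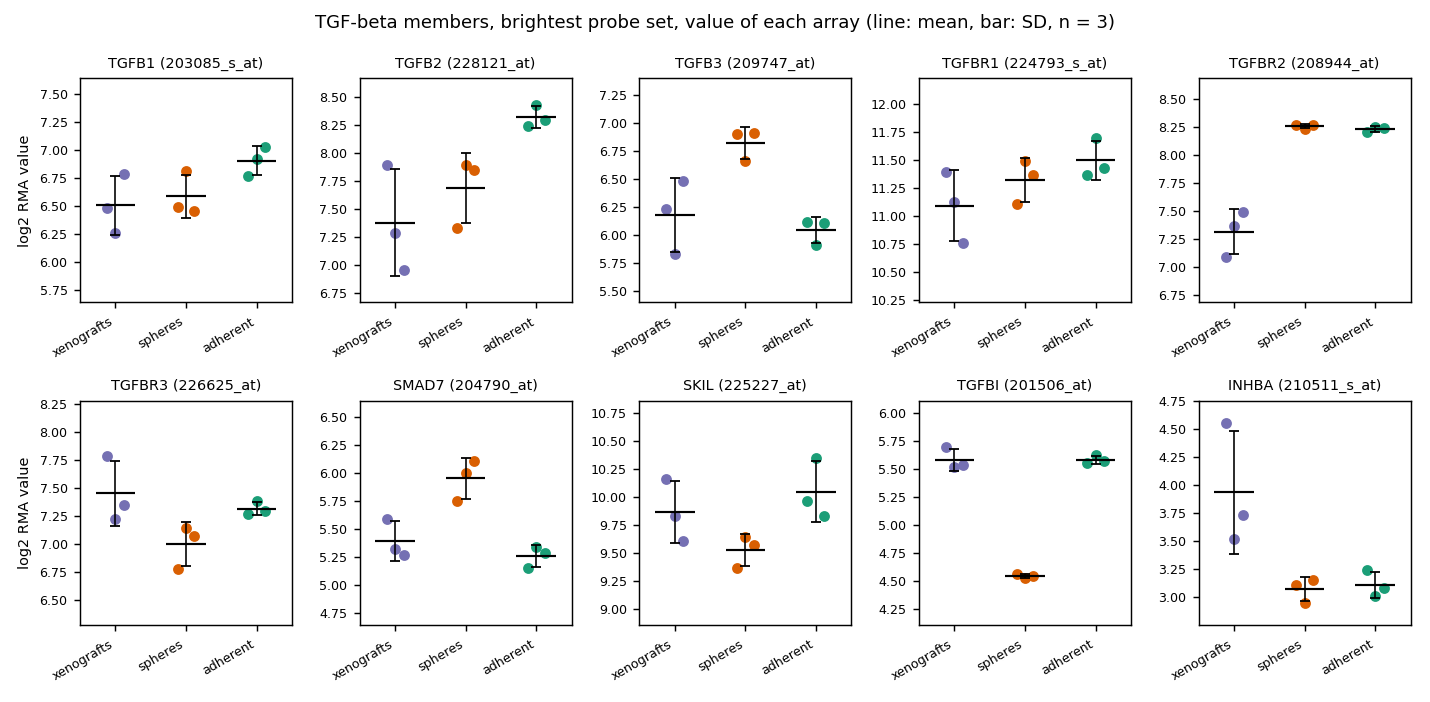
Log2 RMA value (y axis, each panel spanning at least 2 log2 units) of the brightest probe set of each of the 10 genes on every array, with xenografts, spheres and adherent cells along the x axis. Each dot is an array, the line is the mean and the bar the SD of 3 arrays. The TGFBR2 dots of the xenografts lie at 7.09 to 7.49, below all other arrays, and the TGFBI dots of the spheres lie at 4.52 to 4.56, below all other arrays.

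Spheres against adherent cells gave 10 called probe sets of 26. Of these, 4 were higher (15.4%, against 13.3% of all probe sets) and 6 were lower (23.1%, against 12.6%), and 16 were not called. By brightest probe set, 2 of 10 genes were higher (TGFB3 and SMAD7) and 3 were lower (TGFB2, SKIL and TGFBI), while 13.5% of all genes were higher and 16.3% lower. The arrays of both groups did not overlap for 11 of 26 probe sets (42.3%, against 41.6% of all). The median log2 difference of the 26 was -0.17, and that of all probe sets was -0.02.

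Xenografts against adherent cells gave 8 called probe sets. Of these, 2 were higher (7.69%, against 9.78% of all probe sets), both of INHBA, and 6 were lower (23.1%, against 13.2%). By brightest probe set, 1 gene was higher (INHBA) and 2 were lower (TGFB2 and TGFBR2), against 12.6% and 14.3% of all genes. The arrays did not overlap for 12 probe sets (46.2%, against 38.5% of all). The median log2 difference was -0.03, and that of all probe sets was 0.07. This comparison shares its adherent arrays with the comparison of spheres.

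Xenografts against spheres gave 12 called probe sets, 6 higher (23.1%, against 20.6% of all) and 6 lower (23.1%, against 18.5%). By brightest probe set, TGFBR3, TGFBI and INHBA were higher and TGFB3, TGFBR2 and SMAD7 were lower, 3 genes each way, against 25.7% and 18.3% of all genes. The arrays did not overlap for 16 probe sets (61.5%, against 47.4% of all). The median log2 difference was 0.09, and that of all probe sets was 0.10.

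**Figure D2:**
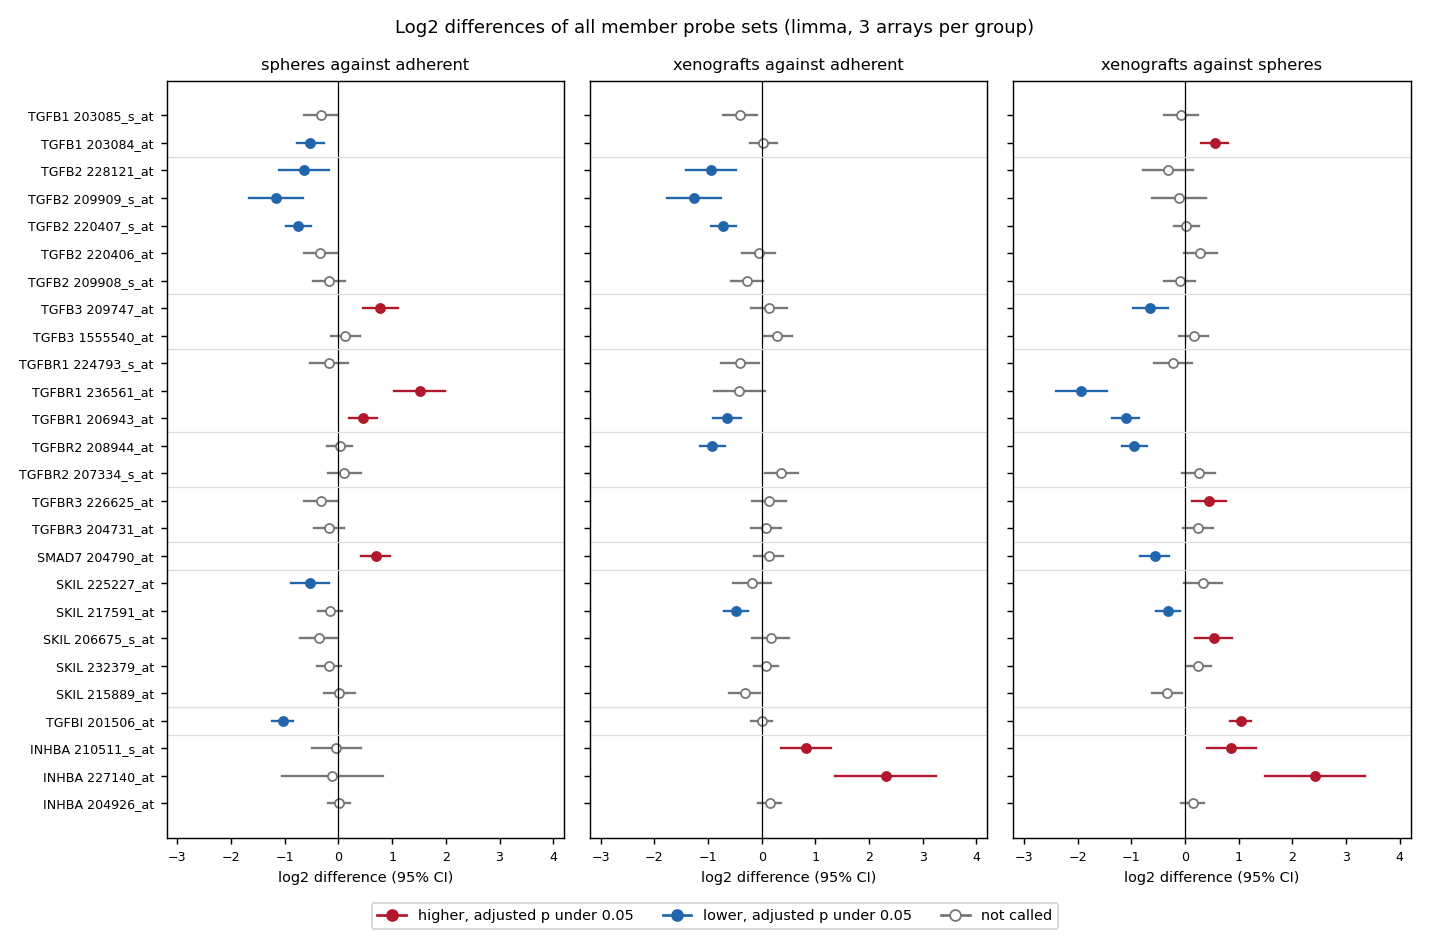
Log2 difference (x axis) with its 95% confidence interval from limma for all 26 probe sets (rows, grouped by gene) in the 3 comparisons (panels). Filled red and blue dots are called higher and lower at an adjusted p under 0.05, and open dots are not called. INHBA 227140_at lies at 2.31 in xenografts against adherent cells and at 2.42 against spheres (1.61 and 1.72 without xenografts replicate 1), and TGFBR1 236561_at at -1.93 between xenografts and spheres.

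TGFB2 encodes the TGF-β2 ligand. Its brightest probe set, 228121_at, read 7.90, 7.29 and 6.96 in the xenografts, 7.33, 7.89 and 7.86 in spheres and 8.24, 8.43 and 8.30 in adherent cells. All xenograft and sphere arrays were below all adherent arrays, and the xenograft and sphere arrays overlapped. The log2 difference was -0.95 ± 0.21 for xenografts against adherent cells (SE, 0.519-fold, adjusted p = 0.00809, limma) and -0.63 ± 0.21 for spheres (0.644-fold, adjusted p = 0.0474). The sphere call sat at the threshold. It was lost when any of 7 arrays was left out (spheres replicate 1, 2 or 3, xenografts replicate 2, or adherent replicate 1, 2 or 3), with differences of -0.73 to -0.45, and with the replicate number as a block (adjusted p = 0.0748). Without xenografts replicate 1, the highest xenograft array, xenografts were also called below spheres (-0.57, adjusted p = 0.0227, against -0.31 and adjusted p = 0.263 with it).

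A pair of dimmer TGFB2 probe sets moved the same way. Probe set 209909_s_at read 5.73, 5.52 and 4.70 in xenografts, 5.15, 5.68 and 5.44 in spheres and 6.43, 6.79 and 6.53 in adherent cells. Probe set 220407_s_at read 4.78, 4.55 and 4.68 in xenografts, 4.58, 4.75 and 4.59 in spheres and 5.37, 5.54 and 5.25 in adherent cells. For both, every adherent array was above every other array. Xenografts against adherent cells differed by -1.27 ± 0.23 and -0.72 ± 0.11 (adjusted p = 0.00223 and 6.04e-04), and spheres by -1.16 ± 0.23 and -0.74 ± 0.11 (adjusted p = 0.00246 and 2.48e-04). The call of 209909_s_at in spheres was kept in all alternatives that gave it a value. The remaining TGFB2 probe sets, 220406_at and 209908_s_at, lay at or below 4.84 in every group and were not called.

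TGFB3 encodes TGF-β3. Its brightest probe set, 209747_at, read 6.23, 5.83 and 6.48 in xenografts, 6.90, 6.66 and 6.91 in spheres and 6.12, 5.91 and 6.11 in adherent cells. The sphere arrays were the 3 highest, and the xenograft arrays overlapped the adherent ones. Spheres were higher than adherent cells by 0.78 ± 0.15 (1.72-fold, adjusted p = 0.00217), and xenografts differed from spheres by -0.64 ± 0.15 (0.640-fold, adjusted p = 0.00577). With both TGFB3 probe sets averaged, the sphere difference from adherent cells was 0.45, still called, and that of xenografts from spheres was not called (-0.24, adjusted p = 0.0754). Spheres thus held less signal for one ligand and more for another: TGFB2 and TGFB3 moved in opposite directions against the same adherent arrays.

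TGFB1 encodes TGF-β1, the most widely expressed ligand of the family. Its brightest probe set, 203085_s_at, read 6.49, 6.26 and 6.79 in xenografts, 6.50, 6.81 and 6.46 in spheres and 6.77, 6.92 and 7.03 in adherent cells. The means of xenografts and spheres were below that of adherent cells, but the arrays overlapped. Neither difference was called (-0.40, 95% confidence interval -0.71 to -0.08, adjusted p = 0.0679 for xenografts, and -0.32 ± 0.14, adjusted p = 0.139 for spheres). Without xenografts replicate 3 the xenograft difference was called (-0.54, adjusted p = 0.0193).

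The dimmer TGFB1 probe set, 203084_at, read 4.90, 4.81 and 5.25 in xenografts, 4.38, 4.45 and 4.46 in spheres and 4.87, 4.98 and 5.01 in adherent cells. Its sphere arrays were the 3 lowest and lay below the median of all probe sets. Spheres were lower than adherent cells (log2 difference -0.52 ± 0.12, adjusted p = 0.00515), and xenografts were higher than spheres by 0.55 ± 0.12 (adjusted p = 0.00285). The 2 probe sets of TGFB1 thus disagreed on the call in both comparisons that involve spheres. Their average was called lower in spheres than in adherent cells (-0.42, adjusted p = 0.0172).

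INHBA encodes the βA subunit, a pair of which forms activin A, a ligand that signals through the same Smad proteins by way of activin receptors. Probe set 227140_at read 5.84, 3.66 and 3.79 in xenografts, 2.09, 1.93 and 2.00 in spheres and 1.98, 2.19 and 2.19 in adherent cells. The brightest by its mean, 210511_s_at, read 4.55, 3.52 and 3.73 in xenografts, 3.11, 2.95 and 3.15 in spheres and 3.24, 3.01 and 3.08 in adherent cells. For both, every xenograft array was above every other array, and xenografts replicate 1 was the highest. Against adherent cells, xenografts were higher by 2.31 ± 0.43 for 227140_at (4.96-fold, adjusted p = 0.00253) and by 0.83 ± 0.21 for 210511_s_at (1.77-fold, adjusted p = 0.0152), and against spheres by 2.42 ± 0.43 and 0.86 ± 0.21 (adjusted p = 9.35e-04 and 0.00714). The third probe set, 204926_at, averaged 2.56 ± 0.11 in xenografts, 2.42 ± 0.02 in spheres and 2.41 ± 0.11 in adherent cells and was not called.

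The size of the INHBA difference depended on 1 array. Without xenografts replicate 1, the differences from adherent cells were 1.61 and 0.52 (adjusted p = 6.76e-06 and 0.00858), and those from spheres 1.72 and 0.55, all still called. The call of 210511_s_at against adherent cells was lost without adherent replicate 2 (0.77) or replicate 3 (0.81). The xenograft group mean of every INHBA probe set lay below the median of all probe sets.

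Some markers of fibroblasts were higher in xenografts too, and others were not. The first 3 given here, LUM, COL1A2 and FAP, were chosen after the values were seen. LUM, a matrix proteoglycan, read 8.31, 6.47 and 6.56 in xenografts, 3.50, 4.51 and 4.31 in spheres and 4.22, 4.53 and 4.14 in adherent cells. Averaged over its probe sets its difference from adherent cells was 1.53 and not 2.82, still called. COL1A2, a chain of type I collagen, read 6.54, 5.73 and 5.87 in xenografts and 4.82, 4.82 and 4.61 in adherent cells. FAP, a surface protease of activated fibroblasts, read 5.12, 4.08 and 4.22 in xenografts and 3.93, 3.99 and 3.75 in adherent cells, a difference that was not called (0.59, adjusted p = 0.0725) but was called without xenografts replicate 2 (0.79, adjusted p = 0.0272) and with the replicate number as a block (adjusted p = 0.0455). Of the 10 fibroblast markers, 5 were higher in xenografts than in adherent cells (LUM, DCN, COL1A1, COL1A2 and COL3A1), 1 was lower (PDGFRB) and 4 were not called. That is 50% higher and 10% lower, against 12.6% and 14.3% of all genes. Xenografts replicate 1, the highest array for INHBA, was the highest xenograft array for 4 of the 10 (LUM, FAP, COL1A2 and COL3A1) and the lowest for 4 (PDGFRA, PDGFRB, COL6A3 and COL1A1). PDGFRA, for example, read 8.07, 8.95 and 8.97 in the xenografts. Their part in the INHBA values was not tested.

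**Figure D3:**
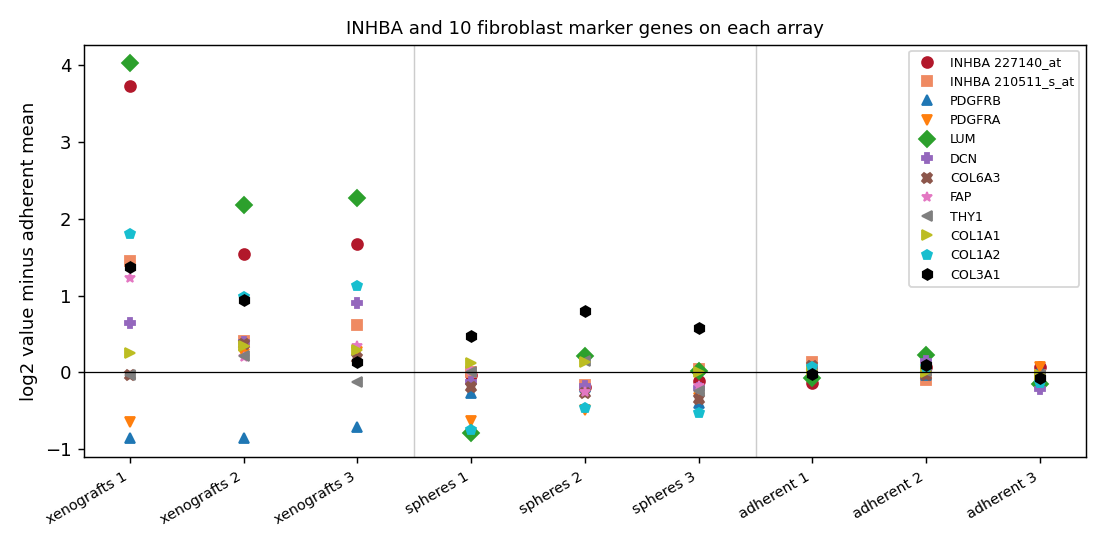
Log2 value minus the adherent mean (y axis) of both called INHBA probe sets and of all 10 fibroblast markers on each of the 9 arrays (x axis). Among the xenografts, replicate 1 is highest for both INHBA probe sets and 4 markers and lowest for 4 other markers.

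TGFBR2, the type II receptor kinase that binds the ligand first, was lower in xenografts. Its brightest probe set, 208944_at, read 7.09, 7.36 and 7.49 in xenografts, 8.27, 8.24 and 8.27 in spheres and 8.20, 8.25 and 8.24 in adherent cells. The sphere and adherent arrays overlapped closely, and all 3 xenograft arrays were below them. Xenografts were lower than adherent cells (log2 difference -0.92 ± 0.11, 0.530-fold, adjusted p = 1.22e-04) and lower than spheres (log2 difference -0.94 ± 0.11, 0.521-fold, adjusted p = 3.53e-05). Between spheres and adherent cells the difference was 0.02, with a 95% confidence interval of -0.21 to 0.26. The other TGFBR2 probe set, 207334_s_at, was dim at 4.02 ± 0.19 in xenografts, 3.77 ± 0.27 in spheres and 3.65 ± 0.09 in adherent cells. It leaned the other way in xenografts against adherent cells (0.37, adjusted p = 0.0824) and was called higher there without xenografts replicate 1 (0.47, adjusted p = 0.0349), and called higher than in spheres without spheres replicate 2 (0.39, adjusted p = 0.0487). When both probe sets were averaged, the fall in xenografts against adherent cells was not called (-0.27, adjusted p = 0.0620), and that against spheres was smaller but called (-0.34, adjusted p = 0.0166).

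TGFBR1 encodes the type I receptor kinase that phosphorylates SMAD2 and SMAD3, and its 3 probe sets did not move alike. The brightest, 224793_s_at, read 11.39, 11.12 and 10.76 in xenografts, 11.11, 11.49 and 11.36 in spheres and 11.36, 11.69 and 11.42 in adherent cells. The 3 groups overlapped and no difference was called (-0.40, adjusted p = 0.0933 for xenografts and -0.17, adjusted p = 0.524 for spheres, both against adherent cells). Without xenografts replicate 1, xenografts were called lower than adherent cells (-0.55, adjusted p = 0.0246).

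Probe set 236561_at read 5.46, 5.85 and 5.03 in xenografts, 6.996, 7.77 and 7.35 in spheres and 5.97, 5.69 and 5.93 in adherent cells. All sphere arrays were above all others by more than 1 log2 unit. Spheres were higher than adherent cells by 1.51 ± 0.21 (2.85-fold, adjusted p = 2.51e-04), and xenografts lower than spheres (log2 difference -1.93 ± 0.21, 0.263-fold, adjusted p = 3.28e-05). Both calls were kept in all alternatives that gave them a value.

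Probe set 206943_at read 5.09, 5.25 and 5.26 in xenografts, 6.12, 6.33 and 6.45 in spheres and 5.74, 6.03 and 5.77 in adherent cells. The groups did not overlap, with spheres highest and xenografts lowest. Spheres were higher than adherent cells by 0.46 ± 0.12 (1.37-fold, adjusted p = 0.0117), xenografts lower than adherent cells (log2 difference -0.65 ± 0.12, 0.639-fold, adjusted p = 0.00210) and xenografts lower than spheres (log2 difference -1.10 ± 0.12, 0.466-fold, adjusted p = 2.14e-05). The sphere call against adherent cells was lost without spheres replicate 3 (0.38), adherent replicate 1 (0.40) or adherent replicate 3 (0.42). Where the 3 probe sets lie on the TGFBR1 transcripts was not analysed here, and the mean of all 3 was higher in spheres than in adherent cells (0.60, adjusted p = 0.00354), opposite in sign to the brightest one. That mean was also lower in xenografts than in adherent cells (-0.49, adjusted p = 0.0143) and than in spheres (-1.09, adjusted p = 4.25e-05).

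TGFBR3, or betaglycan, presents ligands to the other receptors, TGF-β2 above all. Its brightest probe set, 226625_at, read 7.78, 7.22 and 7.35 in xenografts, 6.77, 7.14 and 7.07 in spheres and 7.27, 7.38 and 7.30 in adherent cells. The sphere arrays were the 3 lowest. Only xenografts against spheres was called (0.46 ± 0.15, 1.37-fold, adjusted p = 0.0278), and that call was lost without spheres replicate 1 (0.34), spheres replicate 3 (0.49) or xenografts replicate 1 (0.29). For spheres against adherent cells the difference was -0.32 ± 0.15 (adjusted p = 0.143), and it was called without xenografts replicate 1, whose absence changed only the shared spread (adjusted p = 0.0479). The other TGFBR3 probe set, 204731_at, had group means of 6.97 to 7.22 and was not called.

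SMAD7 encodes the inhibitory Smad that blocks the type I receptor and is itself induced by the signal. Its only probe set, 204790_at, read 5.60, 5.32 and 5.27 in xenografts, 5.75, 6.005 and 6.11 in spheres and 5.15, 5.34 and 5.29 in adherent cells. Every sphere array was above every other array, and xenografts and adherent cells overlapped. Spheres were higher than adherent cells by 0.69 ± 0.12 (1.62-fold, adjusted p = 0.00113), and xenografts lower than spheres (log2 difference -0.56 ± 0.12, 0.678-fold, adjusted p = 0.00364). Xenografts differed from adherent cells by 0.13, with a 95% confidence interval of -0.13 to 0.40.

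SKIL, or SnoN, represses Smad complexes on DNA and is induced by TGF-β too. Its brightest probe set, 225227_at, read 10.17, 9.83 and 9.61 in xenografts, 9.37, 9.64 and 9.58 in spheres and 9.97, 10.35 and 9.83 in adherent cells. The sphere arrays were below all adherent arrays and overlapped the xenograft arrays. Spheres were lower than adherent cells (log2 difference -0.52 ± 0.16, 0.697-fold, adjusted p = 0.0332). This call was lost without any 1 of the 3 sphere arrays or without adherent replicate 1 or 2, with differences of -0.58 to -0.37. Without xenografts replicate 3, xenografts were called above spheres (0.47, adjusted p = 0.0493). By these probe sets SMAD7 and SKIL, the genes with Smad boxes printed above, moved in opposite directions in spheres. With all SKIL probe sets averaged, its difference was not called (-0.24, adjusted p = 0.0647, limma).

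The dimmer SKIL probe sets differed from each other. Probe set 217591_at read 6.33, 6.44 and 6.14 in xenografts, 6.55, 6.71 and 6.61 in spheres and 6.80, 6.83 and 6.71 in adherent cells, and it was lower in xenografts than in adherent cells (-0.48 ± 0.10, adjusted p = 0.00573) and than in spheres (-0.32 ± 0.10, adjusted p = 0.0271). Probe set 206675_s_at read 5.24, 5.39 and 5.31 in xenografts, 4.45, 5.01 and 4.87 in spheres and 5.07, 5.43 and 4.92 in adherent cells, and it was higher in xenografts than in spheres (0.53 ± 0.16, adjusted p = 0.0190). Between xenografts and spheres the direction of SKIL therefore depended on the probe set. The call of 217591_at against spheres was lost without spheres replicate 2 (-0.28), spheres replicate 3 (-0.33) or xenografts replicate 3 (-0.24), and under quantile normalization (-0.16, adjusted p = 0.254). That of 206675_s_at was lost without spheres replicate 1 (0.37) or xenografts replicate 2 (0.50). Probe sets 232379_at and 215889_at had group means of 2.59 to 3.27 and were not called. Leaving out 1 array called them in xenografts against spheres: 232379_at without spheres replicate 1 (0.32), and 215889_at without spheres replicate 2 (-0.42) or xenografts replicate 1 (-0.40).

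**Figure D4:**
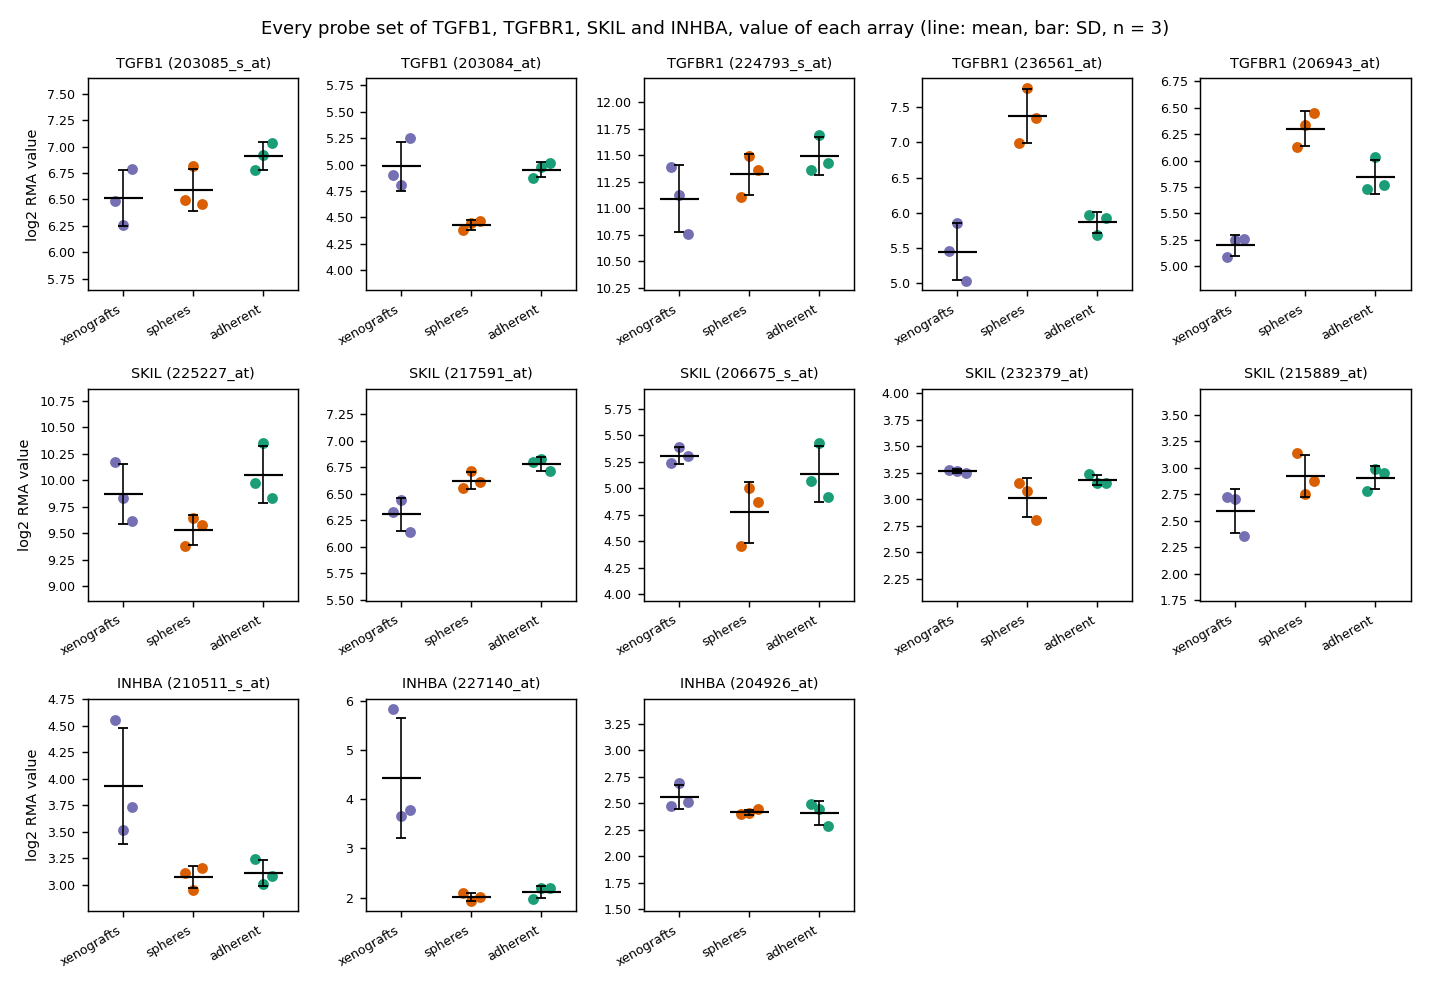
Log2 RMA value (y axis) of every probe set of TGFB1, TGFBR1, SKIL and INHBA on each array of the xenografts, spheres and adherent cells (x axis), with the mean as a line and the SD of 3 arrays as a bar. The probe sets of a gene differ in pattern: TGFBR1 236561_at is highest in spheres at 6.996 to 7.77, whereas for 224793_s_at the 3 groups overlap between 10.76 and 11.69.

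TGFBI encodes a secreted matrix protein named for its induction by TGF-β. Its only probe set, 201506_at, read 5.69, 5.52 and 5.54 in xenografts, 4.56, 4.52 and 4.54 in spheres and 5.55, 5.62 and 5.57 in adherent cells. The sphere arrays lay close together below all others, under the median of all probe sets, while xenografts and adherent cells overlapped. Spheres were lower than adherent cells (log2 difference -1.04 ± 0.09, 0.487-fold, adjusted p = 5.16e-06), and xenografts were higher than spheres by 1.04 ± 0.09 (2.05-fold, adjusted p = 3.99e-06). Between xenografts and adherent cells the difference was 0.00, with a 95% confidence interval of -0.19 to 0.19. Both sphere calls were kept in all 21 alternatives.

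For the 3 of the 10 genes whose group means spread most, the genes with the most similar pattern were found by the root mean square difference in log2 units over the 9 arrays, each gene set to its own adherent mean, among 19765 other genes. For TGFBI these were TRIP13 (0.0510), MEGF10 (0.0522) and LMNB2 (0.0607). For TGFBR2 they were MAN1A2 (0.0768), ASB1 (0.0889) and NECTIN2 (0.0904), and for TGFB2 they were YOD1 (0.135), CNTN4 (0.145) and DCUN1D4 (0.148). The values describe likeness over these arrays.

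The other genes of the pathway were taken from 5 lists, of which 82 genes were analysed here. Spheres against adherent cells gave 16 higher (19.5%) and 17 lower (20.7%), against 13.5% and 16.3% of all genes. Xenografts against adherent cells gave 13 higher (15.9%) and 24 lower (29.3%), against 12.6% and 14.3%. Xenografts against spheres gave 20 higher (24.4%) and 26 lower (31.7%), against 25.7% and 18.3%. The median log2 differences of the 82 genes were -0.10, -0.01 and 0.00 in these 3 comparisons, and those of all genes -0.04, 0.08 and 0.13.

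Of 14 genes for processing and latency of the ligands, 3 were lower (21.4%) and 1 higher (7.14%) in spheres than in adherent cells. Among all genes 16.3% were lower and 13.5% higher. LTBP1, which tethers latent TGF-β to the matrix, differed by -0.94 ± 0.08 in spheres (0.522-fold, adjusted p = 7.27e-06), and its relative LTBP2 by -0.72 (adjusted p = 0.00225). MMP14, a membrane protease, differed by -0.42 (adjusted p = 0.00765). In xenografts 3 were higher (21.4%) and 6 lower (42.9%) than in adherent cells, against 12.6% and 14.3% of all genes. THBS1, thrombospondin 1, which can activate latent TGF-β, differed by -1.29 ± 0.20 (0.409-fold, adjusted p = 9.60e-04). EMILIN1, a matrix glycoprotein, differed by -0.88 (adjusted p = 0.0332) and LTBP2 by 0.81 (1.75-fold, adjusted p = 0.00169). The THBS1 difference was -0.56 with all its probe sets averaged and that of LTBP2 in spheres -0.40, both still called. Without xenografts replicate 1 EMILIN1 differed by -0.46, still called, and its call was lost without any 1 of the adherent arrays (-0.92 to -0.84). LTBP2 was thus lower in spheres and higher in xenografts, both against the same adherent arrays. It read 6.73, 6.39 and 6.26 in xenografts and 5.16, 4.94 and 4.68 in spheres. In adherent cells it read the same value, 5.65, on every array (SD 0), so both differences rest on 1 repeated value. Why these values are identical was not tested. Between xenografts and spheres, 6 of the list were higher and 3 lower (42.9% and 21.4%, against 25.7% and 18.3% of all genes).

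Of 12 activin ligands, receptors and follistatins, 3 were higher (25%) and 2 lower (16.7%) in spheres than in adherent cells. The shares of all genes were 13.5% and 16.3%. INHBE, which encodes the activin βE subunit, was higher by 2.36 ± 0.39 (5.12-fold, adjusted p = 7.55e-04), and ACVR1B, an activin type I receptor, by 1.03 ± 0.08 (2.04-fold, adjusted p = 3.50e-06, and 0.59 with its probe sets averaged, still called). The related receptor ACVR1C was lower in spheres (-0.94, adjusted p = 1.01e-04) and, by less, in xenografts (-0.45, adjusted p = 0.0177), a call lost without xenografts replicate 3 (-0.39) or adherent replicate 1 (-0.41) or 2 (-0.44) and under quantile normalization (-0.28). MSTN, or myostatin, a ligand that limits muscle growth, was higher in xenografts than in adherent cells (0.72, 1.65-fold, adjusted p = 0.00726) and lower in spheres (-0.82, 0.567-fold, adjusted p = 0.00231), both against the same adherent arrays. Of the 10 adult muscle markers, 4 were higher in xenografts too, among them MYH4 (2.40), ATP2A1 (0.69) and ACTN3 (0.52). Another 2, MYL1 and MB, were lower. The part of these markers in the MSTN value was not tested. Besides MSTN and ACVR1C, none of the 12 was called in xenografts against adherent cells (8.33% each way, against 12.6% and 14.3% of all genes). Between xenografts and spheres, 4 were higher and 3 lower (33.3% and 25%, against 25.7% and 18.3% of all genes).

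Of 13 receptor partners and Smad proteins, 4 were lower and 0 higher in spheres, and 4 lower and 1 higher in xenografts, both against adherent cells. That is 30.8% lower in each, against 16.3% and 14.3% of all genes, and 0% and 7.69% higher, against 13.5% and 12.6%. SMAD3 read 8.05, 8.11 and 8.12 in xenografts, 8.25, 8.03 and 8.25 in spheres and 8.70, 8.84 and 8.69 in adherent cells. Every adherent array was above every other. The difference was -0.65 ± 0.09 in xenografts (0.638-fold, adjusted p = 5.68e-04) and -0.57 ± 0.09 in spheres (0.674-fold, adjusted p = 7.76e-04). These are values of the brightest SMAD3 probe set, and with all SMAD3 probe sets averaged neither difference was called (-0.08 in both, adjusted p = 0.348 in xenografts and 0.414 in spheres). SMAD4, the common partner, was lower in spheres (-0.49, adjusted p = 0.00636), and averaged over its probe sets was not called (-0.20). TGFBRAP1, a receptor-associated protein, was lower in xenografts (-0.97) and spheres (-0.82, and -0.46 with its probe sets averaged, still called), and ENG, or endoglin, a co-receptor, was lower in xenografts (-1.20 ± 0.22, 0.434-fold, adjusted p = 0.00217), though not when its probe sets were averaged (-0.41, adjusted p = 0.0701). Between xenografts and spheres 1 of the 13 was higher and 1 lower (7.69% each, against 25.7% and 18.3% of all genes).

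Of 14 further inhibitors, 3 were higher and 5 lower in spheres, and 1 higher and 6 lower in xenografts, both against adherent cells. In spheres these were 21.4% and 35.7%, against 13.5% and 16.3% of all genes. In xenografts they were 7.14% and 42.9%, against 12.6% and 14.3%. BAMBI, a receptor decoy without a kinase domain, was higher in xenografts (0.94 ± 0.25, 1.92-fold, adjusted p = 0.0206) and spheres (1.44 ± 0.25, 2.71-fold, adjusted p = 0.00116). Without xenografts replicate 1, the highest xenograft array, the BAMBI difference in xenografts was 0.56, still called, and the call was lost without any 1 of the adherent arrays (0.89 to 0.98). PMEPA1, which keeps SMAD2 and SMAD3 from the receptor and is induced by TGF-β, read 9.85, 9.62 and 9.65 in xenografts, 8.61, 8.82 and 8.84 in spheres and 9.83, 9.79 and 9.94 in adherent cells. Its sphere arrays were below all others, as those of TGFBI were (-1.09 ± 0.10 for spheres against adherent cells, 0.469-fold, adjusted p = 1.24e-05). DRAP1, a repressor of transcription, was lower in spheres (-0.63), and the ubiquitin ligases WWP1 (-1.16, adjusted p = 7.13e-05) and SMURF1 (-0.85, adjusted p = 5.29e-05) were lower in xenografts, the SMURF1 call not being kept when its probe sets were averaged (-0.02). Between xenografts and spheres 5 were higher and 6 lower (35.7% and 42.9%, against 25.7% and 18.3% of all genes).

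Of 29 genes known to respond to TGF-β in other cells, 9 were higher (31%) and 3 lower (10.3%) in spheres than in adherent cells. Of all genes, 13.5% were higher and 16.3% lower. LOX, which cross-links collagen, was higher by 2.86 ± 0.21 (7.24-fold, adjusted p = 2.01e-06), TIMP3, an inhibitor of metalloproteases, by 1.84 ± 0.14 (3.59-fold, adjusted p = 3.37e-06) and BHLHE40, a transcriptional repressor, by 1.69 ± 0.15 (3.22-fold, adjusted p = 1.03e-05). TGFBI and PMEPA1 were lower in the same arrays.

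In xenografts 7 of the 29 were higher and 7 lower than in adherent cells (24.1% each, against 12.6% and 14.3% of all genes). IL11, a cytokine, read 3.97, 4.03 and 4.37 in xenografts, 7.46, 7.72 and 7.64 in spheres and 7.61, 7.63 and 7.72 in adherent cells. Its xenograft arrays were below all others and below the median of all probe sets, and the fall by its brightest probe set was large (-3.53 ± 0.12 against adherent cells, 0.0864-fold, adjusted p = 1.82e-08). With all IL11 probe sets averaged the fall was -1.81, still called. CDKN1A, the cell cycle inhibitor p21, differed by -2.03 ± 0.11 (0.245-fold, adjusted p = 8.88e-07) and CCN2, a matricellular growth factor, by -1.93 ± 0.31 (0.262-fold, adjusted p = 0.00113). Among the 7 that were higher, COL1A1, COL1A2 and COL3A1 are also on the fibroblast list. Between xenografts and spheres, 4 were higher and 13 lower (13.8% and 44.8%, against 25.7% and 18.3% of all genes). Many of these genes also respond to other signals.

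**Figure D5:**
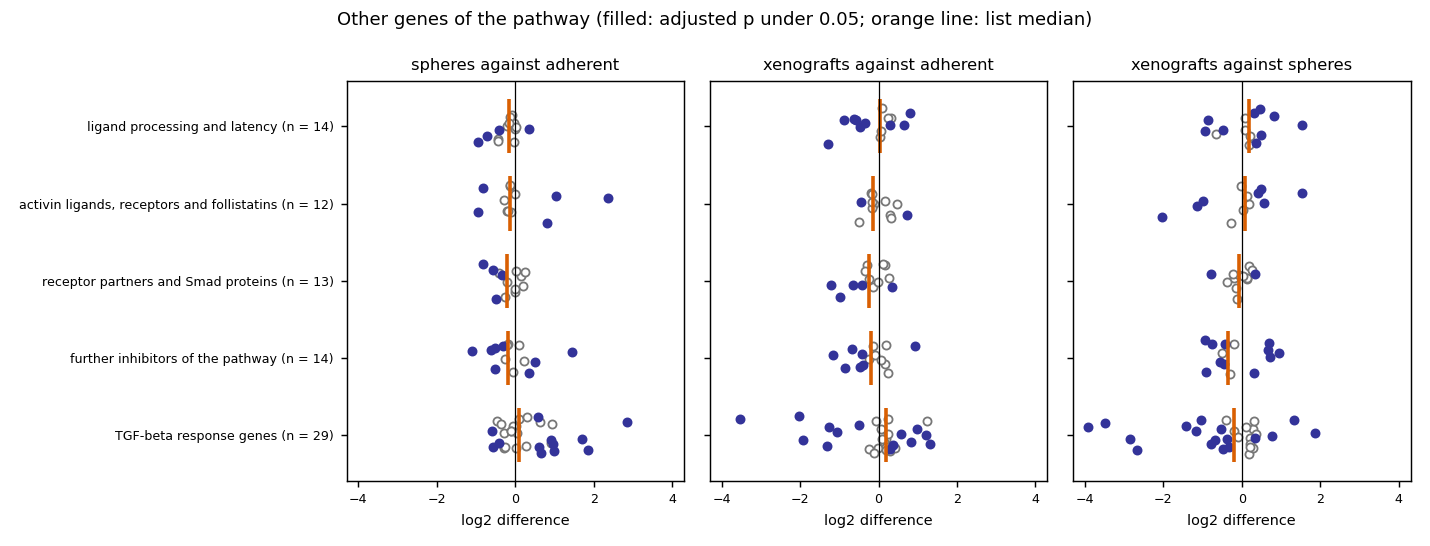
Log2 difference (x axis) of each gene of the 5 pathway lists (rows) in the 3 comparisons (panels), by brightest probe set. Filled dots are called at an adjusted p under 0.05, and the orange line is the median of the list. The response genes spread the widest, with LOX at 2.86 in spheres and IL11 at -3.53 in xenografts, both against adherent cells.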

How the data were processed

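RNA of 9 arrays was summarised by RMA, and the authors deposited log2 values per probe set. Which RMA program was used is not given in the sources used here. Without 62 control probe sets, 54613 entered a limma model (version 3.58.1, R 4.3.3; lmFit, then eBayes) with a mean per group and 6 residual degrees of freedom, tested two-sided with Benjamini-Hochberg adjustment. By the array annotation 41091 probe sets had 1 symbol, 1801 several and 11721 none, and a list gene is read by its brightest one. Named genes were all members, each called member probe set, up to 3 called genes without overlapping arrays per pathway list and comparison against adherent cells, and the 3 most similar genes of the 3 members with the widest spread. LUM, COL1A2, FAP and the other markers named were chosen after their values were seen. The members and lists were chosen with earlier results of these data known. The scripts were tested on simulated data. The number of arrays limits the precision. Promoter windows came from RefSeq. The 21 alternatives covered scaling, filters, the model, thresholds, probe set choice and each array left out.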

Additional observations from a re-analysis of the deposited data

How the results depend on the processing

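Of 30 called results of the members, 6 kept their direction and call in all alternatives that gave a value (TGFB2 209909_s_at in spheres against adherent cells, TGFBR1 236561_at in both sphere comparisons, TGFBR1 206943_at in xenografts against spheres, and TGFBI in both sphere comparisons), and 0 changed sign while called. Of 48 uncalled results, 17 were called in at least 1 alternative. TGFBR1 224793_s_at in spheres against adherent cells, at -0.17, was 0.60 and called when all TGFBR1 probe sets were averaged, and uncalled differences near 0 also changed sign. In spheres against adherent cells, 10 member probe sets and 33 pathway genes were called. Requiring a 2-fold difference left 3 and 7, and leaving out probe sets prone to cross-hybridisation left 18 pathway genes. An unpaired t-test on the compared groups alone, without adjustment, called 50 pathway genes. The methods of the study list such a test in general and name none for the arrays. In xenografts against adherent cells the counts were 8 and 37. They were 2 and 11 at 2-fold, 5 and 17 without probe sets prone to cross-hybridisation, and 3 and 21 with the unpaired t-test after Benjamini-Hochberg adjustment. In xenografts against spheres the counts were 12 and 46. They were 4 and 13 at 2-fold, 4 member probe sets with the adjusted t-test, and 23 pathway genes without probe sets prone to cross-hybridisation. Leaving out probe sets prone to cross-hybridisation takes them out of the counts, 8 member probe sets among them. The 2-fold rule can only remove calls. The cause of the remaining changes was not tested.

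Leaving out 1 array at a time gave 7 to 11 member probe sets and 29 to 39 pathway genes in spheres against adherent cells, 7 to 10 and 27 to 40 in xenografts against adherent cells, and 10 to 13 and 38 to 52 in xenografts against spheres. Correlations of deviations between arrays of 1 replicate number lay between -0.177 and 0.183. Unlike numbers were not set beside them, so these values cannot decide whether the number marks paired arrays. With the replicate number as a block, 9 of the members were called in spheres against adherent cells, 8 in xenografts against adherent cells and 12 in xenografts against spheres, with 33, 36 and 45 pathway genes. It changed 1 call of a member, that of TGFB2 228121_at in spheres. The alternatives were also followed for 32 results: the genes picked by rule from the pathway lists, and LUM, COL1A2 and FAP in xenografts, all against adherent cells. Of these, 12 kept their call under all alternatives. The other markers named, and MSTN in spheres, were not followed through the alternatives. Averaging the probe sets of a gene lost the calls of SKIL in spheres against adherent cells (-0.24), TGFBR2 in xenografts against adherent cells (-0.27) and TGFB3 in xenografts against spheres (-0.24), and called TGFB1 in spheres against adherent cells (-0.42) and TGFBR1 in xenografts against adherent cells (-0.49) and against spheres (-1.09). It gives genes and not probe sets, so it has no count of member probe sets. Signals near or below the array median, as for INHBA, limit what can be read as a fold.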
